A study of Mus musculus with 9 samples.

Results

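Integrin genes were examined in monocytes of mouse blood, as 10 subunit genes out of 23234 gene symbols listed for each library. The members were taken by name: Itgal, Itgam, Itgax and Itgad with their shared partner Itgb2, Itga4 with Itgb1 and Itgb7, and the beta chains Itgb3 and Itgb5. All 10 passed the filter on low values, which asked for 1 FPKM or more on average across the 9 libraries. RNA came from about 100000 sorted cells per library, and levels are FPKM, fragments scaled to the length of the transcript and to the mapped fragments of the library, a scale on which genes may be compared with each other.

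The mice were C57BL/6, 8 months old, and all carried Yaa, a translocation that places a copy of an X chromosome segment on the Y chromosome. The 4 Gr-1+CD11b+ libraries were null for Fcgr2 (Fcgr2-/-.Yaa, replicates 1 and 2), CEBPaCre (CEBPaCre;Fcgr2 fl/fl.Yaa) and CD19Cre (CD19Cre;Fcgr2 fl/fl.Yaa). The 5 Gr-1-CD11b+ libraries were 1 each of null, CEBPaCre, CD19Cre, CD11cCre (CD11cCre;Fcgr2 fl/fl.Yaa) and floxed without Cre (Fcgr2 fl/fl.Yaa). The Cre lines are named for what drives them: CEBPaCre acts in myeloid cells, CD19Cre in B cells, and CD11cCre, driven by the promoter of Itgax, itself 1 of the 10 members, in CD11c+ cells. Gr-1 is an epitope of Ly6C and Ly6G, and CD11b is the product of Itgam, so the sort itself selected on 1 member. The labels do not say whether libraries came from separate mice, and p-values then measure the spread between these libraries, which may be technical.

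Integrins are surface receptors made of 1 alpha and 1 beta chain, and a chain reaches the cell surface only with a partner. The beta2 chain (Itgb2, CD18) is restricted to leukocytes. With Itgal it forms LFA-1, which binds ICAMs on endothelium and with which nonclassical monocytes crawl along vessel walls. With Itgam it forms Mac-1, the complement receptor that also binds fibrinogen, and with Itgax and Itgad it forms CD11c/CD18 and CD11d/CD18. The alpha4 chain (Itga4) pairs with beta1 (Itgb1) as VLA-4, a receptor for VCAM-1 and fibronectin, or with beta7 (Itgb7) as a receptor for the gut addressin MAdCAM-1. The beta3 and beta5 chains (Itgb3, Itgb5) pair with alpha v (Itgav) and bind vitronectin.

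The libraries held between 9783 and 10258 genes at 1 FPKM or more, and the depth in reads is unknown. Both CD19Cre libraries stood lowest on that count (9783 and 9893 genes, against 10134 to 10258 in the other 7). Markers matched the sort: 6 classical monocyte genes summed to 3468 to 8201 FPKM in Gr-1+ and 84.9 to 274 FPKM in Gr-1-, and 8 nonclassical genes to 446 to 673 and 1893 to 3470 FPKM. The targeted gene, listed as Fcgr2b, did not follow the genotype labels: it ran from 83.0 to 200.7 FPKM across the 5 null and CEBPaCre libraries and from 74.9 to 195 FPKM across the 3 CD19Cre and floxed ones. Whether those fragments lie in the deleted exons cannot be seen from a value per gene, and genotypes below are those on the labels. In sorted bulk cells, fewer cells of a type and less RNA per cell cannot be told apart.

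The first comparison asked which subunits separate Gr-1+ from Gr-1- monocytes. Of the 10 members, 4 were lower in Gr-1+ at an adjusted p at or under 0.05 with limma (Itgal, Itgax, Itgad and Itgb3), 0 were higher and 6 did not pass. Of the 4, Itgad passed the filter on low values only through Gr-1-, where it is high. Over all genes tested, 14.8% were called, 5.95% in that direction. The median log2 difference, Gr-1+ minus Gr-1-, was -0.81 over the 10 members and 0.09 over all genes tested. The same 4 members had no overlap in FPKM between the subsets, lower in Gr-1+, as did 6.26% of all genes tested.

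**Figure D1:**
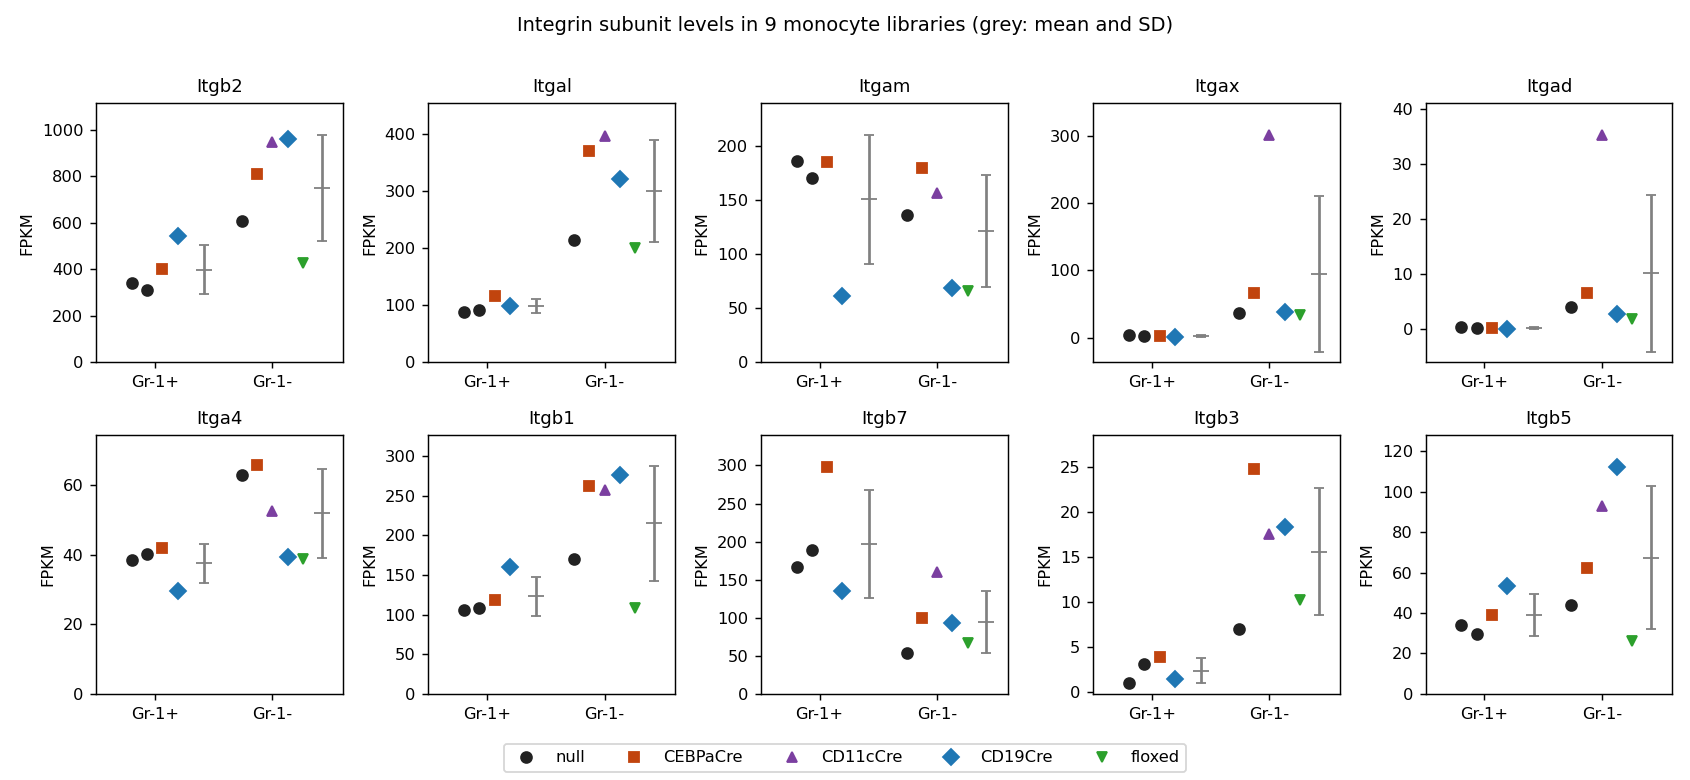
Level of each member in FPKM (vertical axes start at 0, or below it where an error bar or a symbol reaches there) in the 4 Gr-1+ and 5 Gr-1- libraries. Each symbol is 1 library, coloured by its labelled genotype, and the grey bar is the mean with SD of the subset. Itgal, Itgax, Itgad and Itgb3 lay higher in every Gr-1- library, and the CD11cCre library stood at 300.9 FPKM for Itgax.

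The beta2 chain was the highest of the 10 members in every library. By median level, Itgb7 (177.7 FPKM) and Itgam (177.3 FPKM) came next in Gr-1+ and changed places between libraries, before Itgb1 (113 FPKM), Itgal (95.5 FPKM), Itga4 (39.2 FPKM) and Itgb5 (36.6 FPKM). In Gr-1-, Itgal (321 FPKM) was next in all 5 libraries, followed by Itgb1 (258 FPKM) and Itgam (136 FPKM). Itgax, Itgb3 and Itgad held the last 3 places in every Gr-1+ library. Itgb2 held 340.4, 311, 401 and 544 FPKM in the Gr-1+ libraries (null 1, null 2, CEBPaCre, CD19Cre). In Gr-1- it held 609 FPKM in null, 809 in CEBPaCre, 947 in CD11cCre, 959 in CD19Cre and 429 in floxed. Gr-1- libraries were higher except the floxed one, which lay below the CD19Cre Gr-1+ library. The log2 difference was -0.88 ± 0.29 (SE) and did not pass (limma adjusted p = 0.0674, range over the alternatives 0.00302 to 0.159). It passed without the floxed library (0.0233), without the CD19Cre Gr-1+ library (0.0367) and with genotype as a block (0.00912).

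Itgal, the alpha chain of LFA-1, held 88.4, 91.6, 116 and 99.4 FPKM in Gr-1+ (null 1, null 2, CEBPaCre, CD19Cre). In Gr-1- it held 214 (null), 371 (CEBPaCre), 398 (CD11cCre), 321 (CD19Cre) and 200.1 FPKM (floxed). The lowest Gr-1- library was thus well above the highest Gr-1+ library, and the Gr-1+ values were tight. Itgal was 2.92-fold lower in Gr-1+ (log2 difference -1.55 ± 0.25, limma adjusted p = 0.0018), and the call held under all 17 alternatives. Markers of NK cells, which also carry LFA-1, were lower in Gr-1+ too. The 10 NK genes summed to 1.56 to 4.18 FPKM in Gr-1+ and 23.9 to 462 FPKM in Gr-1-, with Ncr1 at 0 in all 4 Gr-1+ libraries. Within Gr-1- the sum was 23.9 FPKM in null, 153 in CEBPaCre, 462 in CD11cCre, 127 in CD19Cre and 186 in floxed. Itgal was highest in CD11cCre, as was that sum, but lowest in floxed, where the sum was not. The part of NK cells in the level of Itgal was not tested.

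Itgax, which encodes CD11c, held 4.10, 1.56, 1.57 and 1.03 FPKM in Gr-1+ (null 1, null 2, CEBPaCre, CD19Cre). In Gr-1- it held 36.2 (null), 65.96 (CEBPaCre), 37.9 (CD19Cre), 33.8 (floxed) and 300.9 FPKM (CD11cCre). The subsets did not overlap, and CD11cCre stood far above the rest of Gr-1-. On the log2(FPKM + 1) scale the difference was -4.46 ± 0.58 (limma adjusted p = 4.2e-04), and -3.90 (adjusted p = 7.5e-05) without the CD11cCre library.

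Itgad, which encodes CD11d, followed Itgax at a lower level, and passed the filter only through Gr-1-, where it is high. It held 0.324, 0.160, 0.217 and 0.0172 FPKM in Gr-1+ and 4.02 (null), 6.60 (CEBPaCre), 2.77 (CD19Cre), 1.79 (floxed) and 35.4 FPKM (CD11cCre) in Gr-1-. Its log2 difference was -2.54 ± 0.61 (limma adjusted p = 0.0161), a scale that understates the change of so low a gene, and -1.93 without the CD11cCre library (adjusted p = 0.00191). The transcripts of Itgad and Itgax are alike in part: in the GENCODE transcripts, 12.4% of the distinct 25-base words of Itgad also occur in Itgax, and 0 are shared with Itgam or Itgal. The files do not show how fragments from such stretches were assigned, and Itgad was 8.49 to 18.9 times lower than Itgax in the Gr-1- libraries.

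Itgam, the neighbour of Itgax on chromosome 7, did not separate the subsets. It held 185.7, 170.0 and 184 FPKM in Gr-1+ null 1, null 2 and CEBPaCre, but 61.7 FPKM in CD19Cre. In Gr-1- it held 136 (null), 179.5 (CEBPaCre), 157 (CD11cCre), 68.3 (CD19Cre) and 66.1 FPKM (floxed). The low libraries were those labelled CD19Cre or floxed, in both subsets. The subset difference was 0.30 ± 0.41 on the log2 scale (limma adjusted p = 0.695). Markers of neutrophils, cells that can enter a Gr-1+CD11b+ gate, summed over 10 genes to 588 to 1965 FPKM in Gr-1+ and to 16.3 to 29.6 FPKM in Gr-1-. In Gr-1+ most of that sum was S100a8 and S100a9, which classical monocytes also express, and the other 8 genes summed to 60.4 to 334 and 4.12 to 16.8 FPKM. Cxcr2 of that list overlapped (4.70 to 7.94 and 3.003 to 15.2 FPKM). The part of neutrophils in the level of Itgam was not tested.

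Itgam and Itgax lie side by side and share the partner Itgb2, yet had unlike patterns across the subsets, so the 250 bases before the start of each gene are shown (RefSeq, GRCm38.p6, plus strand, chr7:128062390-128062639 and chr7:128129300-128129549). Capitals mark matches to GAGGAA, the core that PU.1, a transcription factor of myeloid cells, recognises, on either strand. Of the 10 members, 6 had an entry in the promoter table.
Itgam: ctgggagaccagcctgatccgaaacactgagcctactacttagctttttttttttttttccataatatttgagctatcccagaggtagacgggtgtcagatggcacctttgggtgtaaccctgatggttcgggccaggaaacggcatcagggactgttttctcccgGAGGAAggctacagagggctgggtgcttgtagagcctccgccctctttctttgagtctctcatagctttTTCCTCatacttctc
Itgax: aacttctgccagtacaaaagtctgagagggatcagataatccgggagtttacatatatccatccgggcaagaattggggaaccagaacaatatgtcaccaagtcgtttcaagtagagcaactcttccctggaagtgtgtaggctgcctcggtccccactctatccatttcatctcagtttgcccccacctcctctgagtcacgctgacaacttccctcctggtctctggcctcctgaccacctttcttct
The Itgam window held the motif at 2 places, starting 84 and 15 bases before the gene start, the second on the opposite strand (TTCCTC). The Itgax window held 0 matches. Of the 6 member windows 2 held it, those of Itgam and Itgb1, and so did 23.3% of the 32851 windows of that length that were searched. TGTGGT, the core of RUNX factors, was found in 1 of the 6 (Itga4) and in 14.0% of all windows. TTGCNNAA, a C/EBP core in which N is any base, was in 0 of the 6 and 9.56% of all. These matches describe letters in a window, not binding.

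The makeup of the beta2 partners can be read within each library, where scaling cancels. Itgam made up 66.7%, 64.6%, 60.9% and 38.0% of the summed FPKM of the 4 alpha genes in Gr-1+ (null 1, null 2, CEBPaCre, CD19Cre), and 15.9% to 34.9% in Gr-1-. Itgal made up 31.7% to 61.3% in Gr-1+ and 44.7% to 74.7% in Gr-1-. Itgax made up 0.519% to 1.47% in Gr-1+ and 8.81% to 33.8% in Gr-1-, and its share was 8.81% to 11.2% in the 4 Gr-1- libraries other than CD11cCre. Thus the shares of Itgam, Itgax and Itgad did not overlap between the subsets, while that of Itgal did through the CD19Cre Gr-1+ library. The 4 alpha genes together came to 0.298 to 0.846 times the level of Itgb2 in Gr-1+ and 0.449 to 0.940 times in Gr-1-, so that Itgb2 exceeded the sum of its partners in all 9 libraries. The 2 lowest of these ratios were those of the CD19Cre libraries.

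**Figure D2:**
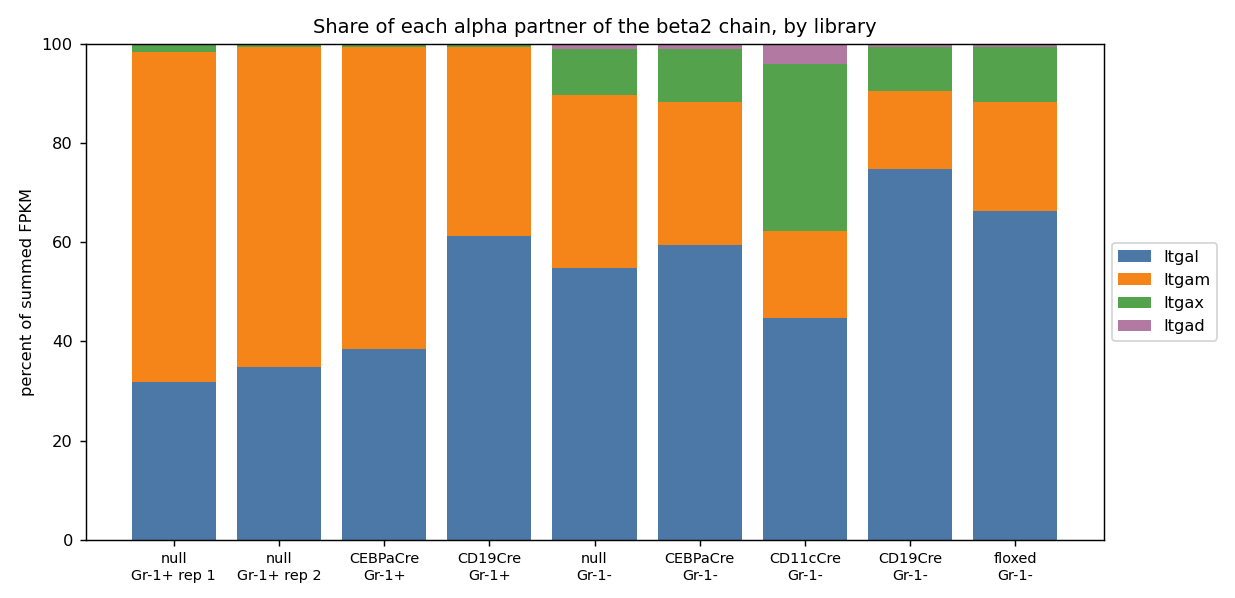
Share of Itgal, Itgam, Itgax and Itgad in their summed FPKM (vertical axis, percent) in each of the 9 libraries. Itgam was the largest share in 3 Gr-1+ libraries and Itgal in the other 6, and Itgax reached 33.8% in the CD11cCre library.

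The chains of VLA-4 differed less. Itga4 held 38.3, 40.0, 41.9 and 29.5 FPKM in Gr-1+ (null 1, null 2, CEBPaCre, CD19Cre) and 62.9 (null), 65.8 (CEBPaCre), 52.6 (CD11cCre), 39.2 (CD19Cre) and 38.7 FPKM (floxed) in Gr-1-. The subsets overlapped, with the Gr-1- CD19Cre and floxed libraries inside the Gr-1+ range, and the difference did not pass (log2 -0.44 ± 0.22, limma adjusted p = 0.24). Itgb1 held 106, 108, 119 and 159 FPKM in Gr-1+ and 109 to 277 FPKM in Gr-1-, with floxed the lowest. Its difference did not pass either (log2 -0.74 ± 0.30, adjusted p = 0.132), but did without the floxed library (0.0236). With genotype as a block, both passed toward Gr-1- (adjusted p = 0.0157 for Itga4 and 0.00859 for Itgb1).

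Itgb7, the beta chain of the gut-homing receptor, lay in the other direction. It held 166, 189, 297 and 135 FPKM in Gr-1+ (null 1, null 2, CEBPaCre, CD19Cre). In Gr-1- it held 53.3 (null), 99.1 (CEBPaCre), 160.2 (CD11cCre), 93.4 (CD19Cre) and 66.6 FPKM (floxed). All Gr-1+ libraries except CD19Cre lay above all Gr-1- libraries, where CD11cCre was the highest. The log2 difference was 1.09 ± 0.33, at the edge of the threshold (limma adjusted p = 0.0502, range over the alternatives 0.01 to 0.15). It passed without the CD11cCre library (0.0196), without the CD19Cre Gr-1+ library (0.0368) and with genotype as a block (0.01). Of T cell markers, 8 genes summed to 1.505 to 3.07 FPKM in Gr-1+ and 3.87 to 18.5 FPKM in Gr-1-, and the part of T cells, which also carry beta7, was not tested.

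Within a library, the level of Itgb7 was 1.56, 1.75, 2.51 and 0.849 times that of Itgb1 in Gr-1+ (null 1, null 2, CEBPaCre, CD19Cre), and 0.312 to 0.621 times in Gr-1-. These ratios did not overlap. The level of Itga4 was 0.141 to 0.231 times that of Itgb7 in Gr-1+ and 0.328 to 1.18 times in Gr-1-, also without overlap, whereas Itga4 over Itgb1 overlapped (0.185 to 0.371 and 0.142 to 0.369).

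**Figure D3:**
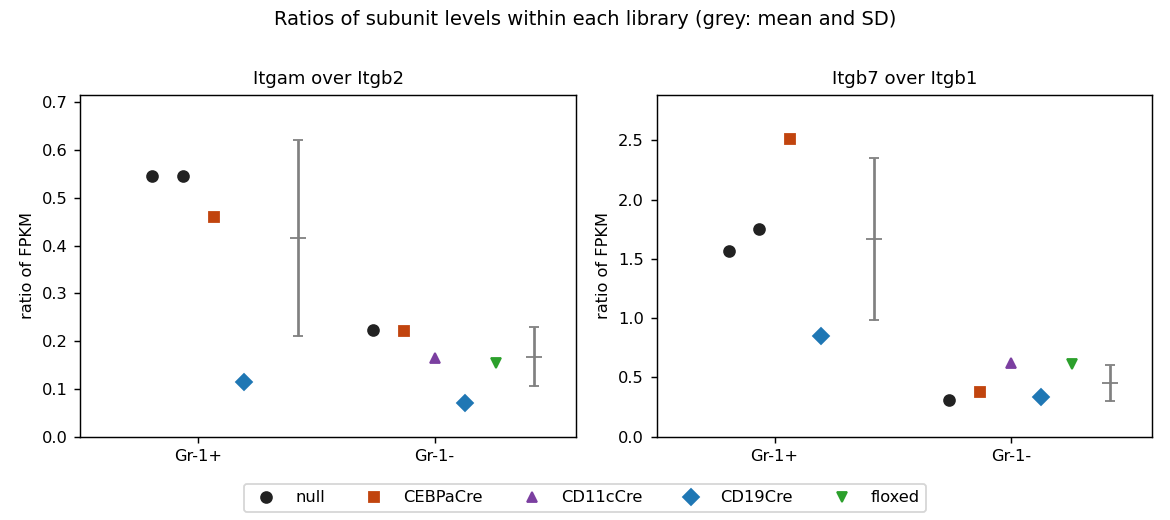
Ratio of FPKM of Itgam to Itgb2 (left) and of Itgb7 to Itgb1 (right) within each of the 9 libraries, by subset. Symbols are libraries coloured by labelled genotype, and the grey bar is the mean with SD. The right panel has no overlap between the subsets, and in the left panel the 3 CD19Cre and floxed libraries are at or under 0.154.

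Itgb3, the beta3 chain of vitronectin and platelet fibrinogen receptors, was low in Gr-1+, at 1.01, 3.13, 3.94 and 1.41 FPKM (null 1, null 2, CEBPaCre, CD19Cre). In Gr-1- it held 6.98 (null), 24.8 (CEBPaCre), 17.6 (CD11cCre), 18.3 (CD19Cre) and 10.2 FPKM (floxed), above every Gr-1+ library. The difference was -2.27 ± 0.38 on the log2 scale (limma adjusted p = 0.00198), and held under all 17 alternatives. Platelet markers overlapped between the subsets: 12 platelet genes summed to 12.99 to 40.1 FPKM in Gr-1+ and 5.42 to 26.1 FPKM in Gr-1-. None of the 12 was at 0 in all libraries, and the part of platelets in the level of Itgb3 was not tested.

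Itgb5 held 29.6 to 53.5 FPKM in Gr-1+ and 25.9 to 112 FPKM in Gr-1-. The floxed library was the lowest and the CD19Cre library the highest, and the subsets overlapped (log2 -0.63 ± 0.39, limma adjusted p = 0.344). With genotype as a block Itgb5 passed toward Gr-1- (log2 -0.69, adjusted p = 0.02). Itgav, the alpha v chain that both beta chains use, averaged 11.3 ± 1.66 FPKM over the 4 Gr-1+ libraries (mean ± SD, as below) against 21.4 ± 7.22 FPKM over the 5 Gr-1- libraries, and its difference fell just short (log2 -0.81 ± 0.25, limma adjusted p = 0.0528). It passed with genotype as a block (0.00287) and without the floxed library (0.0112).

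Of the 17 other integrin subunits listed in mouse, 5 passed the filter and 12 did not. The highest single value among those 12 was 1.21 FPKM. Of the 5, 3 alpha chains that pair with beta1 were higher in Gr-1+. Itga1, a collagen receptor chain, averaged 3.68 ± 1.27 FPKM over Gr-1+ libraries against 0.227 ± 0.131 FPKM over Gr-1- libraries (log2 1.89 ± 0.22, limma adjusted p = 1.8e-04). Itga5, which with beta1 forms the main fibronectin receptor, averaged 47.6 ± 19.5 and 14.9 ± 7.67 FPKM (log2 1.66 ± 0.36, adjusted p = 0.00912), and the lowest Gr-1+ library (31.5 FPKM, null 2) lay above the highest Gr-1- library (27.5 FPKM, CD19Cre). Itga6, a laminin receptor chain, averaged 2.00 ± 1.061 and 0.461 ± 0.292 FPKM (log2 0.97 ± 0.28, limma adjusted p = 0.0403, range over the alternatives 0.00377 to 0.107). The call of Itga6 was lost under 10 of 16 alternatives, among them leaving out any 1 of 7 libraries. Itga2b, the platelet partner of Itgb3, overlapped (2.53 ± 1.34 and 1.47 ± 1.05 FPKM, adjusted p = 0.423). Itga2, which did not pass the filter, was highest in the CD11cCre library (1.04 FPKM, against 0 to 0.348 in the other 8), the library with the highest NK sum. Whether NK cells contribute to this level of Itga2 was not tested.

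By partner, 3 of the 4 beta2 alpha genes were lower in Gr-1+ and Itgam did not pass. Of the 3, Itgad passed the filter on low values only through Gr-1-, where it is high. Of the tested alpha genes read here with beta1, Itga1, Itga5 and Itga6 were higher in Gr-1+ and Itga4 did not pass. Itgav, read above with beta3 and beta5, lay lower in Gr-1+ and did not pass (log2 -0.81 ± 0.25). Itga1 and Itga6 passed the filter only through Gr-1+, where they are high, and Itga3 (0.0127 FPKM in Gr-1+ and 0.580 in Gr-1- on average) and Itga9 (0.108 and 0.616 FPKM), which lay the other way, did not pass it. No direction of the beta1 partners as a group can be read from these counts. Over all 15 subunits tested, 3 lay higher in Gr-1+, 4 lay lower and 8 missed the threshold, where 8.84% and 5.95% of all genes were called in these directions. With genotype as a block the counts were 4 and 9, where 16% and 9.97% of all genes were called, and with quantile normalization 3 and 7, where 10.2% and 9.16% were.

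**Figure D4:**
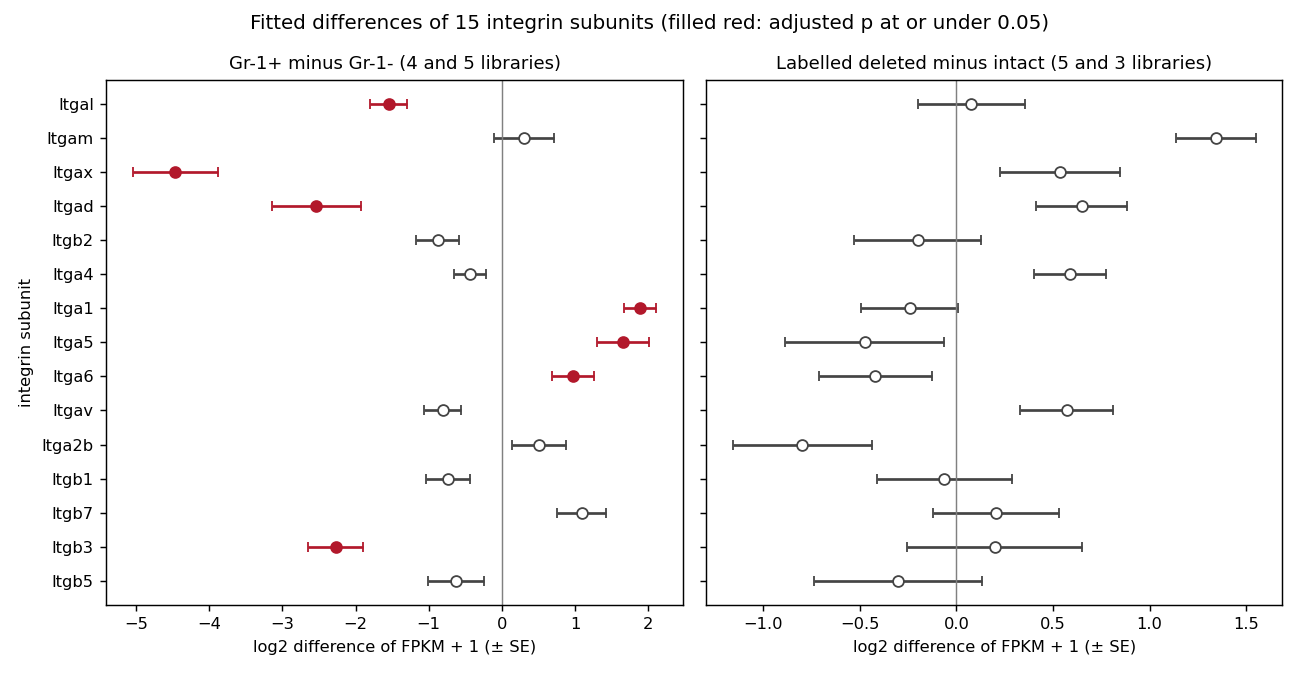
Fitted log2 differences of FPKM + 1 with SE (horizontal axes) for the 15 integrin subunits tested, between the subsets (left, positive where higher in Gr-1+) and between the null and CEBPaCre libraries and the CD19Cre and floxed ones (right, positive where higher in the former, subset as a covariate). Filled symbols passed an adjusted p of 0.05, which 7 did on the left and 0 on the right, where Itgam had the largest difference, 1.34.

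Null, CEBPaCre and CD19Cre libraries were present in both subsets, which gave 4 ratios of Gr-1+ to Gr-1- within a genotype, the 2 null ratios sharing the null Gr-1- library. Of the 10 members, 8 were lower in Gr-1+ in all 4, as were 21.6% of all genes, and 1 (Itgb7) was higher in all 4, as were 31.5% of all genes. For Itgb2, the 4 log2 ratios were -0.84 and -0.97 (null), -1.01 (CEBPaCre) and -0.82 (CD19Cre). For Itgal they were -1.27, -1.21, -1.66 and -1.68. For Itgb7 they were 1.62, 1.81, 1.57 and 0.53, smallest in CD19Cre. Itgam had no common sign, with 0.45 and 0.32 in null, 0.04 in CEBPaCre and -0.14 in CD19Cre. Each of these ratios rests on single libraries and has no replicate check.

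The next comparison asked how the subunits differed with the genotype, between 5 libraries labelled as lacking Fcgr2 in myeloid cells (null, CEBPaCre) and 3 labelled as keeping it (CD19Cre, floxed). With limma and the subset as a covariate, 0 of 10429 genes were called (0%), among them 0 of the 15 subunits, while 1470 genes (14.1%) and 4 subunits had an unadjusted p under 0.05. The count rested on single libraries. Without the floxed library 2551 genes were called, 4 of them subunits (Itgam and Itga4 higher, Itgb5 and Itga5 lower in the libraries labelled deleted). That fit kept CD19Cre as the only genotype labelled intact, so it contrasts null and CEBPaCre with CD19Cre alone. Without the CD19Cre Gr-1+ library 6 genes and 0 subunits were called. With library weights, whose estimation did not converge, 673 genes were called, 1 of them a subunit, Itgam.

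Itgam stood out in level. The 5 libraries labelled deleted held 136 to 186 FPKM with a median of 179.5, and the 3 labelled intact held 61.7, 68.3 and 66.1 FPKM. The CD11cCre library, left out of this fit, held 157 FPKM, within the range of the first group. The log2 difference was 1.34 ± 0.21, with the second smallest p of the 10429 genes (unadjusted p = 1.15e-04), and an adjusted p of 0.306 with limma (range over the alternatives 0.00863 to 1). The groups did not overlap in 5.48% of all genes tested, 4.34% higher and 1.14% lower in the libraries labelled deleted, and Itgam was the 1 member among them. B cell markers also differed: 7 genes summed to 9.24 to 97.3 FPKM in the libraries labelled deleted and 71.6 to 157 FPKM in those labelled intact, and their part in this difference was not tested. The difference was 1.21 within Gr-1- alone (null and CEBPaCre against CD19Cre and floxed) and 1.21 to 1.53 over all 18 alternatives. It was 1.23 without both CD19Cre libraries, where floxed was the only library labelled intact. The limma adjusted p was 0.0418 with library weights, whose estimation did not converge. Without the floxed library it was 0.00863, with CD19Cre as the only genotype labelled intact. Relative to Itgb2 in the same library, Itgam stood at 0.165 in the CD11cCre library, below the libraries labelled deleted and just above those labelled intact. It stood at 0.222 to 0.546 in the libraries labelled deleted and 0.0712 to 0.154 in those labelled intact, and these ranges did not overlap. A difference of this contrast between the subsets (interaction) was called with limma for 0 of the 15 subunits and for 0.0863% of all genes (0.0479% higher and 0.0384% lower in Gr-1+), and 0 subunits had an unadjusted p under 0.05. For Itgam it was 0.32 ± 0.44 (adjusted p = 0.894).

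Itga4 had a smaller difference in the same direction, at 49.8 ± 13.4 FPKM over the 5 libraries labelled deleted and 35.8 ± 5.45 FPKM over the 3 labelled intact (log2 0.59 ± 0.19 at equal subset, limma adjusted p = 0.306). Its adjusted p was 0.0408 without the floxed library, where CD19Cre was the only genotype labelled intact. Itgad (log2 0.65 ± 0.24, adjusted p = 0.308) and Itgav (0.57 ± 0.24, adjusted p = 0.339) were the other subunits with an unadjusted p under 0.05. Itgax had a log2 difference of 0.54 ± 0.31 (adjusted p = 0.435), which turned to -0.54 without the subset as a covariate. Itgb2 (log2 -0.20 ± 0.33), Itgb1 (-0.06 ± 0.35), Itgal (0.08 ± 0.28), Itgb7 (0.21 ± 0.33), Itgb3 (0.20 ± 0.45) and Itgb5 (-0.30 ± 0.43) each had a difference smaller than its error, and each changed sign under some alternative, Itgb1 also when libraries were scaled to a common 75th percentile. In the CD19Cre Gr-1+ library the members Itgb2, Itgb1 and Itgb5, and also Itga5, Itga6 and Itga2b, were the highest of the 4 Gr-1+ libraries. The members Itgam, Itgax, Itgad, Itga4 and Itgb7, and also Itgav, were the lowest there.

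The CD11cCre library, whose Cre is driven by the Itgax promoter, was compared with the other 4 Gr-1- libraries as values, with no test for a single library. Itgax was 300.9 FPKM against 33.8 to 65.96, and Itgad 35.4 against 1.79 to 6.60 FPKM, while Itgam on the other side of Itgax was within the range (157 against 66.1 to 179.5 FPKM). Of the 5 genes on each side of Itgax in the RefSeq order, 4 of 10 were matched in the files, and 3 of these lay above the other Gr-1- libraries. Besides Itgad they were Cox6a2, a muscle and heart subunit of cytochrome c oxidase, at 26.4 against 0 to 1.28 FPKM, and 4931431B13Rik, at 20.8 against 0 to 2.81 FPKM. In a wider window of 8 protein-coding genes on each side, chosen after the values were seen, 9 of 15 matched genes lay above, 5 within and 1 below, where 20.7% of all genes past the filter lay above. Of the 9, 3 (Prss8, Prss36 and Slc5a2) were under 1 FPKM in all 5 libraries. Armc5 was at 13.2 against 6.20 to 8.12 FPKM and Slc5a2 at 0.470 against 0.0727 to 0.198 FPKM, while Tgfb1i1 between them lay within the range. By the log2 difference from the mean of the other 4 libraries, Itgad ranked 42 and Itgax 46 of 10521 genes.

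**Figure D5:**
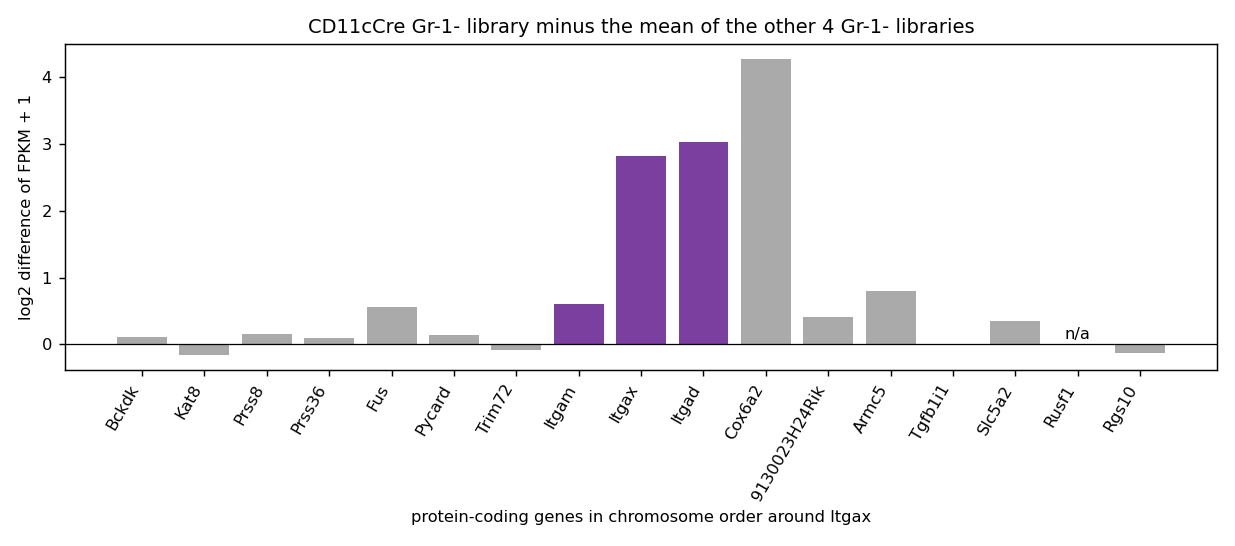
Log2 difference of FPKM + 1 between the CD11cCre Gr-1- library and the mean of the other 4 Gr-1- libraries (vertical axis) for Itgax and 8 protein-coding genes on each side, in chromosome order. Purple bars are integrin genes and n/a marks a gene not matched in the files. The tall bars are Itgax (2.82), Itgad (3.02) and Cox6a2 (4.28), and Itgam is at 0.61.

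Among markers of other cells that carry CD11c, all 10 NK genes were highest in the CD11cCre library among Gr-1- libraries, and summed to 462 FPKM against 23.9 to 186 FPKM in the other 4. Of 7 dendritic cell genes 3 were highest there (Flt3, Clec9a and Cd209a) and 4 were not. Their sum was 79.2 against 18.6 to 47.0 FPKM, of which Cd209a alone made up 58.3 FPKM. The part of these cells in the level of Itgax was not tested. Other members were not set apart in that way: Itgal (398 FPKM) and Itgb7 (160.2 FPKM) were the highest of the Gr-1- libraries there, but Itgb2, Itgb1, Itgb3, Itgb5 and Itga4 lay within the range of the others.

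Genes that act with integrins were read from 3 lists. Of 27 tested genes for activation and adaptors, 4 were lower in Gr-1+, none was higher and 23 missed the threshold, where 5.95% of all genes were called lower and 8.84% higher. They were Vasp, an actin-binding protein (65.2 ± 11.3 against 159 ± 23.6 FPKM, limma adjusted p = 0.00154), Dok1, an adaptor that restrains integrin activation (31.8 ± 7.22 against 71.4 ± 15.5 FPKM, adjusted p = 0.00486), Rasgrp2, the exchange factor that activates RAP1 (51.5 ± 7.85 against 99.98 ± 26.8 FPKM, adjusted p = 0.0157), and Fyb, the adaptor ADAP (130.4 ± 31.3 against 215 ± 21.3 FPKM, adjusted p = 0.0339). Talin (Tln1, log2 -0.51 ± 0.39) and kindlin 3 (Fermt3, 0.01 ± 0.29), which bind beta tails, did not pass (adjusted p = 0.46 and 0.985).

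Of 14 tested genes for signalling from bound integrins, 2 were lower in Gr-1+, none was higher and 12 missed the threshold. Among them Ptk2b, the kinase PYK2, averaged 50.6 ± 17.4 and 121.7 ± 30.2 FPKM (limma adjusted p = 0.014). Of 11 tested ligand genes, 4 lay higher in Gr-1+, none lay lower and 7 missed the threshold. The shares of all genes called are those given for the adaptors, 5.95% lower and 8.84% higher. Fn1, fibronectin, the ligand of Itga5 and Itga4 receptors, averaged 360 ± 153 and 6.90 ± 1.80 FPKM (adjusted p = 6.7e-06). Thbs1 (thrombospondin 1), Mfge8 (a bridge to alpha v integrins) and C3 (whose fragment iC3b binds Mac-1) were the others, at log2 differences of 2.54, 0.94 and 1.26. Of the 4, Thbs1 passed the filter only through Gr-1+, where it is high (10.7 ± 10.7 against 0.562 ± 0.276 FPKM). The medians of these 3 lists were -0.24, -0.26 and 0.94, against 0.09 over all genes. In the genotype comparison 0 genes of the 3 lists passed, as over all genes.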

How the data were processed

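RNA of 9 libraries was analysed from tables of FPKM per gene symbol, deposited by the authors as 1 file per library. Per the submitters' processing notes, TopHat2 2.0.8, Cufflinks 2.1.1 and mm9 were used; the gene annotation and settings are not given in the sources used here. Per the labels, a low-input SMART-Seq kit served for cDNA. Values of 0 can be failed estimates. All value columns were used.

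On log2(FPKM + 1), limma 3.58.1 (R 4.3.3; eBayes with a trend, two-sided) was run over genes that averaged 1 FPKM or more and were above 0 in at least 2 fitted libraries, with Benjamini-Hochberg adjustment over all genes tested and calls at 0.05. The subset fit had 9 libraries and no covariate. The deletion fit had 8, with the subset as a covariate. CD11cCre was left out there because its driver acts in CD11c+ cells. Folds are 2 to the power of the log2 difference. The code was tested on simulated data.

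Named genes were the 10 members, other subunits that were called, up to 4 called genes per direction of 3 lists (activation, signalling, ligands) and the 5 genes on each side of Itgax; 1 called gene of the signalling list is not reported here. Other subunits (Itgav, Itga2b, Itga2, Itga3, Itga9), Tln1, Fermt3, single markers and genes of the wider window around Itgax were named after their values were seen. Members, lists and tests were chosen with earlier results of these data known. Alternatives were another pseudocount, filters, scalings, library weights, a genotype block and left-out libraries. Promoters are from RefSeq GRCm38.p6 and transcripts from GENCODE M21; only names, order and sequences were taken from them.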

Additional observations from a re-analysis of the deposited data

Results flagged for a closer look

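Of 39 groups examined for an isolated highest or lowest library (13 genes in Gr-1+, in Gr-1- and in the libraries labelled deleted), 4 had one by Dixon's criterion, where chance gives about 1 in 20. Itgam in the CD19Cre Gr-1+ library (61.7 FPKM) lay apart from the other 3 Gr-1+ libraries. Itgax (300.9 FPKM) and Itgad (35.4 FPKM) in the CD11cCre library lay apart from the other 4 Gr-1- libraries. Itgb3 in the CEBPaCre Gr-1- library (24.8 FPKM) lay apart from the other 4 libraries labelled deleted, of which 3 are Gr-1+.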

How the results depend on the processing

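No subset difference of the 15 subunits changed sign under any alternative run. Of 519 values of single subunits under an alternative, 452 kept direction and side of the threshold, 10 lost the call (all Itga6 by subset), 31 gained one and 26 changed sign, all of these in the genotype comparison and none called. Of all genes, 2376 were called by subset with library weights and 2712 with genotype as a block, and 1128 to 1578 when 1 library was left out. Of the subunits, 11 were called by subset with scaling to a common 75th percentile (4 higher and 7 lower in Gr-1+). With library weights 12 were called (4 and 8), with genotype as a block 13 (4 and 9), and with 1 library left out 6 to 9. The shares of all genes called higher and lower were 9.67% and 9.18% with scaling, 13% and 9.81% with library weights. They were 16% and 9.97% with the block, and 6.02% to 9.73% and 4.32% to 6.6% with 1 library left out. By genotype, 673 genes were called with library weights, 12 in Gr-1- libraries alone and 0 to 2551 with 1 library left out. The last was without floxed, with CD19Cre as the only genotype labelled intact. Of the subunits, 1 was called with library weights and 0 to 4 with 1 library left out. The interaction gave 5 genes with scaling, an alternative chosen after seeing the data. The weights' estimation did not converge. Why these counts moved was not tested.

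The genotype log2 differences that changed sign were as follows. Without the subset as a covariate, Itgal was at -0.31, Itgax at -0.54, Itgb3 at -0.40 and Itga1 at 0.28. Without both CD19Cre libraries, which left floxed as the only library labelled intact, Itgb2 was at 0.71, Itgb1 at 0.95, Itgb5 at 0.98 and Itga5 at 0.78. In Gr-1- alone, Itgb2 was at 0.13, Itgb1 at 0.28, Itgb7 at -0.12 and Itgb3 at -0.037. Itgal was at -0.0075 with library weights, and Itgb1 at 0.081 with scaling, 0.10 with quantile normalization and 0.032 with CD11cCre counted as deleted. With 1 library left out, Itgal ranged from -0.13 to 0.25, Itgb2 from -0.55 to 0.13, Itgb1 from -0.46 to 0.28, Itgb7 from -0.12 to 0.49, Itgb3 from -0.14 to 0.65 and Itgb5 from -0.85 to 0.13. Scaling moved the median of all genes from 0.09 to -0.02 by subset and from -0.03 to 0.09 by genotype.

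By replicate number, no paired analysis was possible because the subsets share only number 1 of the null libraries. Matching by genotype was possible, and is the fit with genotype as a block above. Every genotype had 1 library per subset except null Gr-1+, with 2, and no genotype was tested alone. Depth in reads is unknown, which leaves the precision of low genes such as Itgad and Itgax in Gr-1+ unknown too.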
